A study of Mus musculus with 3 samples.

Results

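The expression of 6 genes of the sodium pump and of bicarbonate and chloride cotransport was examined in astrocytes made from mouse embryonic stem cells: Atp1b1, Atp1b2 and Atp1b3, Fxyd1, Slc4a4 and Slc12a2. The genes were chosen by name, with earlier results of these data known. Their members on the arrays were all probe sets annotated to exactly 1 gene, that gene being one of the 6. They had 17 probe sets of the 34958 with 1 gene, and were 6 of 18194 genes. The samples form 1 group of 3 arrays, labelled wild type. The stem cells had passed through embryoid bodies (4 days), a 5 to 7 day selection in ITSFn medium and expansion as neural precursor cells in FGF2 and EGF2. Precursors 18 passages from the embryoid bodies then spent 5 days without these growth factors in 5% FBS (fetal bovine serum). Total RNA was measured on 1-colour Affymetrix Mouse Genome 430 2.0 arrays. No control or other cell type was measured, so each gene is set against background only. The sources used here do not name the stem cell line, its number of clones or whether separate cultures gave the samples, so the p-values cover the spread among the 3 samples alone, and that spread may be technical.

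The sodium pump uses ATP to carry sodium out of the cell and potassium in, and it keeps up the gradients that glutamate uptake and potassium clearance by astrocytes draw on. A catalytic alpha subunit needs a beta subunit to fold and reach the cell surface, and small FXYD proteins tune the pump's affinity for its ions. Slc4a4 encodes NBCe1, an electrogenic sodium bicarbonate cotransporter that sets the pH of astrocytes and of the fluid around them, and Slc12a2 encodes NKCC1, which brings sodium, potassium and chloride into the cell and takes part in volume control.

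All 6 genes were above background, against 58.3% of the 18116 genes tested (limma one-sample test of log2 signal over a background limit, one-sided, Benjamini-Hochberg adjusted p below 0.05). The limit was the 95th percentile of 78 receptor genes for smell, pheromones, trace amines and taste on each array, 3.99, 4.10 and 4.07 log2 units on replicates 1, 2 and 3. Their adjusted p-values by limma lay between 3.85e-05 and 4.47e-05. The members' median was 5.795 log2 units above the limit, beside 1.76 for all genes tested. Because the 6 genes were chosen with earlier results of these data known, these contrasts with all genes describe them and test nothing. A gene took the probe set with the highest mean. Among single probe sets 15 of the members' 17 passed, against 52.2% of 34871 tested. Probe sets differ in brightness, so heights over the limit, medians included, do not rank genes by their amount of RNA. In RNA from a mixed culture, fewer cells expressing a gene and less RNA per cell cannot be told apart.

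**Figure D1:**
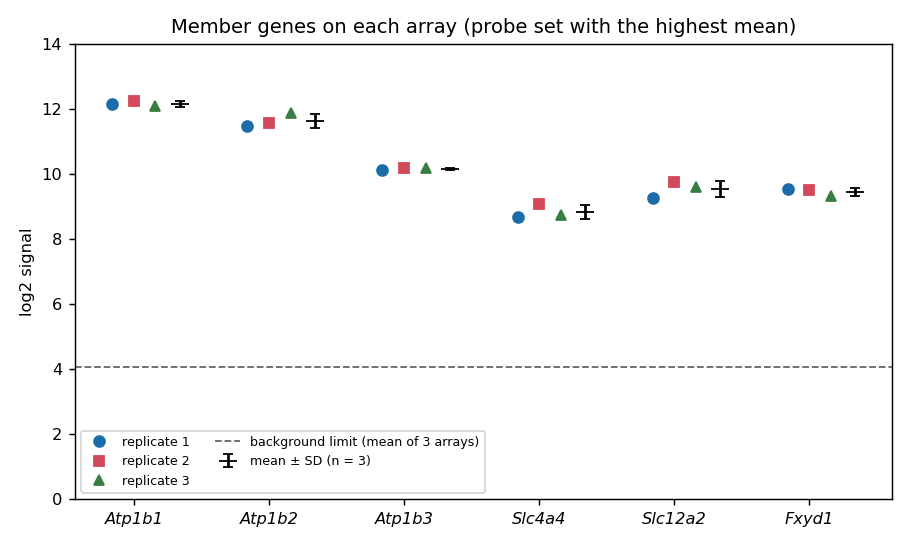
Log2 signal of the 6 genes (x axis) on the 3 arrays, with the mean ± SD beside the points and the mean background limit as a dashed line. Each gene lies above the limit on every array, from 4.68 log2 units above it (Slc4a4 on replicates 1 and 3) to 8.16 (Atp1b1 on replicate 2).

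The arrays held the astrocyte marker genes, and replicate 3 stood apart in its control probe sets. All 10 astrocyte markers passed, with Gfap, Aqp4 and S100b at 12.63 ± 0.12, 11.87 ± 0.10 and 9.57 ± 0.19 log2 units (SD, n = 3). Of the other marker lists, 5 of 10 neuronal genes, 5 of 9 oligodendrocyte lineage genes, 3 of 6 ependymal, 4 of 9 choroid plexus, 3 of 10 heart and skeletal muscle, 2 of 8 mesenchymal, 2 of 8 endothelial, 1 of 7 microglia and blood and 1 of 7 epithelial genes passed, beside 58.3% of all genes. The median signal of an array was 20.02, 23.3 and 19.4 on replicates 1, 2 and 3. The array also carries probe sets at the 5′ and the 3′ end of control transcripts. On replicate 3 the log2 ratio of 5′ to 3′ signal was below its mean on replicates 1 and 2 for 8 of 8 pairs on poly-A RNA spiked in before amplification, by between -0.75 and -2.06 units. The same difference lay between -0.22 and 0.33 for 8 pairs on controls added at hybridisation. The spike-in pairs read dap, lys, phe and thr on 2 pairs each, and the hybridisation pairs read bioB, bioC, bioD and cre likewise. The 8 pairs of a kind are therefore not 8 separate transcripts. Among mouse transcripts the difference was -0.78 for Actb and -0.69 for Gapdh. For the other 2 mouse pairs a signal on replicate 3 was under the background limit of 16.8. The 5′ signal of pyruvate carboxylase was 13.6 there, against 57.5 and 54.6 on replicates 1 and 2, so it gives no exact ratio for that array. The transferrin receptor was under the limit at both ends there. Its 5′ signals of 12.3 and 11.1 on replicates 1 and 2 were under the limits of 15.9 and 17.1 too, so it gives no ratio on any array. Replicates 1 and 2 differed from each other by at most 0.45 over all 20 pairs, the transferrin receptor pair included. These control values were looked up after the members' values had been seen.

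All 3 beta subunit genes were above background. Atp1b1 encodes beta 1, the most widespread form. Its brightest probe set, 1439036_a_at, gave signals of 4510, 4904 and 4332 on replicates 1, 2 and 3. The mean was 12.16 ± 0.09 log2 units (SD, n = 3). This was 8.11 units above the limit (95% confidence interval 7.74 to 8.47, limma adjusted p = 3.85e-05). The SD was below the median of 0.15 for the 1057 genes above background in the same decile of signal. After the median shift of each array was taken off, the deviations were 0.16, 0.08 and -0.24 and the SD was 0.21.

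A further 3 Atp1b1 probe sets passed and 1 did not. Probe set 1423890_x_at gave 2850, 3019 and 3762, highest on replicate 3. Probe set 1418453_a_at gave 2730, 2901 and 2222, lowest on replicate 3. Probe set 1451152_a_at gave 1448, 1773 and 1828, lowest on replicate 1. The first of these carries the suffix for probes that can cross-hybridise with other genes. The probe set that did not pass, 1455949_at, gave 13.7, 27.5 and 17.5, on both sides of the limit, which was 15.9, 17.1 and 16.8 on the same arrays (limma adjusted p over probe sets = 0.442). The annotation puts all 5 on Atp1b1. The call for the gene was made on 1439036_a_at alone, and 4 of 5 probe sets passed when tested singly.

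The window of RefSeq's annotated start of Atp1b1 is shown because it holds a TATATA motif close before the start, unlike most windows. It lies at chr1:164458306-164458605 on the minus strand of GRCm38.p6, with 250 bases before the start. Capitals mark matches, on either strand, to the 4 motifs searched. These were the TATA-type motifs TATATA and, as the second form, TATAAA, the CCAAT motif, and GGGCGG, the GC box. No matches overlap here.
Atp1b1: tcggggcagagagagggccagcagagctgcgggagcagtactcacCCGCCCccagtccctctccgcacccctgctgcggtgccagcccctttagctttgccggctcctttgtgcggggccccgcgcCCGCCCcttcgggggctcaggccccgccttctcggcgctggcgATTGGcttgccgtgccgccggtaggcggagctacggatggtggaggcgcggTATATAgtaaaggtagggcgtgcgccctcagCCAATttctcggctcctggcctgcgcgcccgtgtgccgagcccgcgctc
TATATA begins 30 bases before the start, and 5.67% of 32851 windows of this length in the table hold that motif. CCAAT was matched at 2 places and GGGCGG at 2, motifs held by 37.4% and 35.7% of windows. The window has 31 CpG pairs, against a median of 7. A match is a string of letters, and binding was not measured.

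Atp1b2 encodes beta 2, also named adhesion molecule on glia, the beta subunit typical of astrocytes. Its brighter probe set, 1435148_at, gave signals of 2821, 3020 and 3719 on replicates 1, 2 and 3, highest on replicate 3. The mean was 11.63 ± 0.21 log2 units, 7.58 above the limit (95% confidence interval 7.16 to 7.99, limma adjusted p = 3.85e-05). After the median shift of each array was taken off, its deviations were 0.01, -0.08 and 0.07 log2 units, with an SD of 0.08.

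The second Atp1b2 probe set went the other way. Probe set 1422009_at gave 1452, 1091 and 303 on replicates 1, 2 and 3, lowest on replicate 3, with a mean of 9.61 ± 1.20 log2 units. It passed on its own at 5.56 units above the limit (95% confidence interval 3.97 to 7.15, limma adjusted p over probe sets = 0.00115). Its SD exceeded that of 99.6% of the probe sets above background in its decile of signal, whose median SD was 0.22. On replicate 3 the 2 probe sets' shifts, relative to all probe sets above background, were 1.60 log2 units apart. Of 2858 genes with exactly 2 probe sets above background, 0.56% had a gap as wide on that array, and the median gap was 0.28. The gap was 1.06 on replicate 1 and 0.55 on replicate 2, matched or exceeded by 0.805% and 5.49% of these genes. Each shift was taken from the probe set's own mean over the 3 arrays, so the gaps are tied to one another. Those on replicates 1 and 2 are therefore not further evidence beside the gap on replicate 3. Replicate 3 is also the array with the low 5′ signals of its control transcripts. The files do not say where on the transcript each probe set lies, and the part of that difference in the Atp1b2 values was not tested. Without replicate 3, Atp1b2 was 7.47 units above the limit on its brighter probe set.

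**Figure D2:**
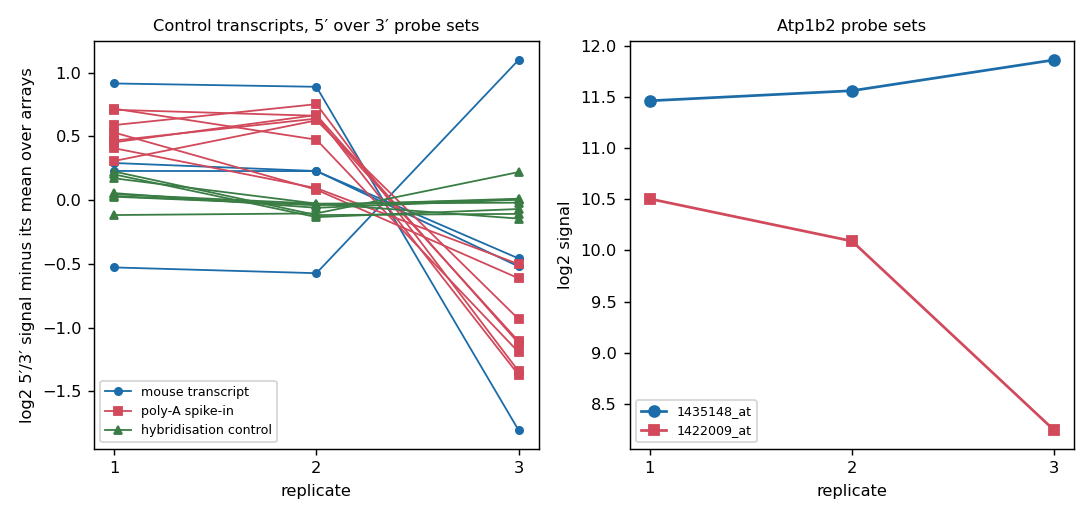
Left, log2 ratio of 5′ to 3′ signal of 20 control pairs on replicates 1 to 3, each less its own mean over the arrays. Right, log2 signal of both Atp1b2 probe sets on the same arrays, where lines join the values of 1 control or probe set and replicates have no order. The 2 mouse pairs with the widest change on replicate 3, pyruvate carboxylase and the transferrin receptor, have a signal under the background limit there. All 8 poly-A spike-in pairs, 2 for each spiked-in transcript, are lowest on replicate 3. So is probe set 1422009_at, while 1435148_at is highest there.

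Atp1b3 encodes beta 3, found in many tissues, and has 1 probe set. Probe set 1423126_at gave signals of 1110, 1164 and 1152 on replicates 1, 2 and 3. The values were nearly equal, with a mean of 10.16 ± 0.04 log2 units, 6.10 above the limit (95% confidence interval 5.76 to 6.45, limma adjusted p = 3.85e-05). In its decile of signal, 3.88% of genes above background had a smaller SD. After the median shift of each array was taken off, the deviations were 0.14, 0.01 and -0.15 and the SD was 0.15. RefSeq lists 2 start windows for this gene, with 34 and 39 CpG pairs. The first holds 6 matches to GGGCGG and neither holds a TATA-type motif.

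Fxyd1 encodes phospholemman, the FXYD protein of heart and skeletal muscle, also made in brain. Its 1 probe set, 1421374_a_at, gave signals of 741, 724 and 633 on replicates 1, 2 and 3, lowest on replicate 3. The mean was 9.45 ± 0.12 log2 units, 5.39 above the limit (95% confidence interval 5.00 to 5.79, limma adjusted p = 3.92e-05). Less the median shift of each array, its deviations were 0.27, 0.04 and -0.30, the widest spread among the 6 genes on that scale (SD 0.29).

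Heart and skeletal muscle and choroid plexus are tissues rich in Fxyd1, so their markers are given beside it. Of the muscle list, none of the first measured genes passed, with Myh6, Myh7 and Tnnt2 at 2.97 ± 0.57, 2.32 ± 0.56 and 2.54 ± 1.14. The 3 that passed were Actc1, Acta1 and Mb at 4.80 ± 0.38, 5.59 ± 0.18 and 5.996 ± 0.27, Mb on 1 of 2 probe sets. The summed signal of the list lay between 7.67 and 8.04 log2 units over the arrays. Of the choroid plexus list, the folate receptor gene Folr1 passed at 9.91 ± 0.06, while Ttr and Kl, at 2.70 ± 0.94 and 0.78 ± 1.89, failed to pass. The others that passed were Calml4 at 10.59 ± 0.02, Kcnj13 at 4.81 ± 0.36 and Sostdc1 at 4.67 ± 0.12, Sostdc1 on 1 of 2 probe sets. Aqp1, Clic6 and Steap1 did not pass. The summed signal lay between 11.33 and 11.37, most of it from Calml4 and Folr1. Such sums add probe sets that differ in brightness, so they do not rank the lists. No marker was listed at 0. The part of either cell type in the Fxyd1 signal was not tested.

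The start window of Fxyd1 is shown because it has few CpG pairs beside those of Atp1b1 and Atp1b3. It lies at chr7:31054804-31055103 on the minus strand of GRCm38.p6, with the same 4 motifs in capitals.
Fxyd1: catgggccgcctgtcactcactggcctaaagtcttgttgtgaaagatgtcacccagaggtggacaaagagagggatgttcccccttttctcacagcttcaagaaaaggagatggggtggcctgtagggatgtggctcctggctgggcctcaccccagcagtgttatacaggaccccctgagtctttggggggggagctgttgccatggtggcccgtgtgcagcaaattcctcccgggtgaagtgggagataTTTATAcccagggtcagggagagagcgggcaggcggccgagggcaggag
It has 6 CpG pairs. The match reads TTTATA, which is TATAAA on the opposite strand, and begins at base 2, counting the start as base 1. The TATAAA motif is held by 13.6% of windows. The other 3 motifs do not occur in these letters.

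Slc4a4, the bicarbonate cotransporter gene, passed on 4 of its 5 probe sets, which differed among themselves. Probe set 1434096_at gave signals of 407, 543 and 430 on replicates 1, 2 and 3, highest on replicate 2. The mean was 8.83 ± 0.22 log2 units, 4.78 above the limit (95% confidence interval 4.37 to 5.20, limma adjusted p = 4.47e-05). Its SD was near the median of 0.22 for genes of its signal range.

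Probe set 1452071_at gave 162, 171 and 139, lowest on replicate 3, and 1426432_a_at gave 81.6, 118 and 153, highest there, though both were designed on the same sequence record. Both passed, at 3.24 and 2.78 units above the limit. The pair designed on the RefSeq transcript lay lower. Probe set 1421225_a_at gave 30.9, 39.03 and 26.03, above the limit on each array, and passed at 0.93 units above it (95% confidence interval 0.39 to 1.47, limma adjusted p over probe sets = 0.0104). Probe set 1450169_at gave 8.93, 1.70 and 5.98, below the limit on each array, and did not pass (limma adjusted p over probe sets = 1). With the median of its probe sets Slc4a4 was 2.76 units above the limit. Slc4a4 makes several transcripts, and which of them each probe set reads is not given in the sources used here.

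RefSeq lists 2 starts for Slc4a4 in the table, and both windows are shown because they differ in make-up. They lie at chr5:88887010-88887309 and chr5:89027716-89028015 on the plus strand of GRCm38.p6, with the same 4 motifs in capitals.
Slc4a4 first window: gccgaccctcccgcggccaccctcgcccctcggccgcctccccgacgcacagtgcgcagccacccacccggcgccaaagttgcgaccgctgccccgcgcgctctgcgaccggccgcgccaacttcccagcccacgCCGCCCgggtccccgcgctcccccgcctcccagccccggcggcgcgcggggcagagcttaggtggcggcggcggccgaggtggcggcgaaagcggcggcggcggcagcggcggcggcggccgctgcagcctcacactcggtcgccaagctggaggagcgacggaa
Slc4a4 second window: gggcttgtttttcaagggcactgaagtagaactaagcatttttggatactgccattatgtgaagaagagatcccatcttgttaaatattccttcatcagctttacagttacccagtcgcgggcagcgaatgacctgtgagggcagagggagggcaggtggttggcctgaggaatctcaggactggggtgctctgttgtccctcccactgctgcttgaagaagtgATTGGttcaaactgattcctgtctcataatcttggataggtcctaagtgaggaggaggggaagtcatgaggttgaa
The first window has 50 CpG pairs, more than 99.1% of all windows, and 80% of its bases are G or C. The second has 3 CpG pairs and 48.3% G or C. A GGGCGG match stands in the first and a CCAAT match, 26 bases before the start, in the second. The arrays do not tell which start the cells used.

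Slc12a2 had 3 probe sets designed on 1 sequence record, and all passed. Probe set 1417622_at gave signals of 610, 864 and 778 on replicates 1, 2 and 3, lowest on replicate 1. The mean was 9.54 ± 0.26 log2 units, 5.49 above the limit (95% confidence interval 5.06 to 5.91, limma adjusted p = 4.07e-05). Probe set 1448780_at gave 57.5, 98.01 and 29.02, lowest on replicate 3. It lay 1.72 units above the limit (95% confidence interval 0.55 to 2.89, limma adjusted p over probe sets = 0.0163), with an SD of 0.88 that exceeded 96.4% of probe sets in its signal range. Probe set 1417623_at gave 33.8, 40.3 and 29.6, also lowest on replicate 3, and lay 1.05 units above the limit. Its SD of 0.22 was below the median of 0.29 for probe sets in its signal range. With the median of its probe sets Slc12a2 was 1.75 units above the limit (limma adjusted p = 0.0157). The low values on replicate 3 stand beside the low 5′ control signals of that array, and their part was not tested.

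**Figure D3:**
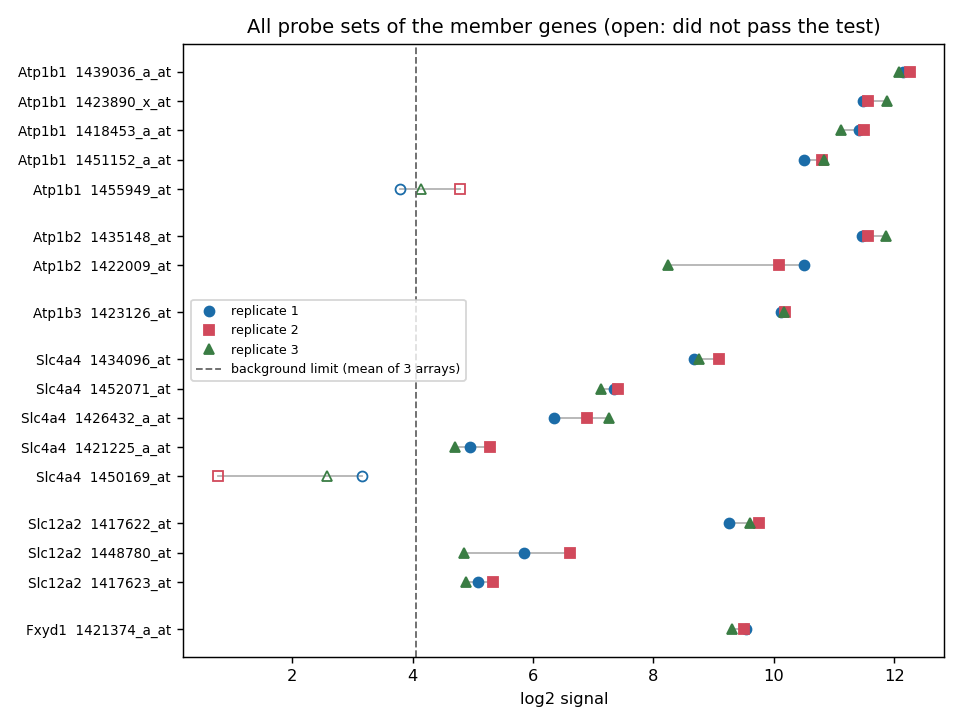
Log2 signal (x axis) of all 17 probe sets of the 6 genes, 1 row each, on the 3 arrays, with the mean background limit as a dashed line. Filled symbols passed the test and open ones did not. The 2 probe sets that did not pass belong to Atp1b1 and Slc4a4, and 1422009_at of Atp1b2 and 1448780_at of Slc12a2 spread widely over the arrays.

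Related genes were mixed. Of 59 measured genes on 9 lists of relatives and regulators, 26 were above background, with a median of 0.19 log2 units above the limit, against 58.3% and 1.76 for all genes tested. Among pump subunits, the alpha subunit gene measured was Atp1a4, the form of sperm, at 1.35 ± 2.07 log2 units, and it did not pass. The other alpha subunits were not analysed here. Of the 4 relatives among beta-like and proton pump genes, Atp4b, the beta subunit of the gastric proton pump, passed at 4.75 ± 0.42 (limma adjusted p = 0.0347), and did not without replicate 1 or without replicate 2.

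Of the 6 other FXYD genes, 1 passed. Fxyd6, also named phosphohippolin and known from brain, gave 9.18, 9.36 and 9.64 log2 units on replicates 1, 2 and 3, with a mean of 9.40 ± 0.23 (limma adjusted p = 4.16e-05). Fxyd7, known from neurons, was at 2.18 ± 1.34, and Fxyd5 lay at 4.06 ± 0.13, at the limit (limma adjusted p = 0.747). Fxyd2, Fxyd3 and Fxyd4 were at 2.14 ± 0.69, 3.38 ± 1.85 and 3.98 ± 0.15. All 3 measured NKAIN genes, whose proteins are named for their binding to the sodium pump, passed. Nkain1, Nkain2 and Nkain4 were at 9.13 ± 0.21, 8.74 ± 0.21 and 8.29 ± 0.08 log2 units.

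Of the 8 other SLC4 genes measured, 3 passed. The chloride-bicarbonate exchanger genes Slc4a2 and Slc4a3 were at 9.32 ± 0.59 and 7.91 ± 0.58 (limma adjusted p = 0.000139 and 0.000296), both highest on replicate 3. Slc4a11 was at 6.23 ± 0.11. Slc4a3 and Slc4a11 each passed on 1 of 2 probe sets. Those that did not pass were the red cell exchanger gene Slc4a1 at 2.59 ± 0.80, Slc4a5 at 1.21 ± 0.76, Slc4a8 at 4.18 ± 0.53, Slc4a9 at 1.17 ± 1.79 and Slc4a10 at 1.44 ± 1.51. Slc4a10 and Slc4a5 encode sodium-linked bicarbonate carriers of the choroid plexus, and Slc4a8 one of neurons.

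Of the 7 other SLC12 genes, 3 passed. Slc12a4, which encodes the potassium-chloride cotransporter KCC1, gave 8.28, 8.42 and 9.30 log2 units on replicates 1, 2 and 3 (mean 8.67 ± 0.55, limma adjusted p = 0.000173). Slc12a9 and Slc12a8, whose transport roles are less clear, were at 8.67 ± 0.43, on 1 of 2 probe sets, and 7.81 ± 0.32. The neuronal chloride extruder gene Slc12a5, which encodes KCC2, passed on neither of its 2 probe sets (3.89 ± 0.59). The kidney cotransporter genes Slc12a1 and Slc12a3 were at 3.33 ± 0.14 and 1.33 ± 0.45, and Slc12a7 was at 3.45 ± 1.16, and none of them passed.

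The WNK kinases and their partners switch NKCC1 on and potassium-chloride cotransporters off. Of 10 genes of this list, 9 passed, and 6 did taking the median over each gene's probe sets, where 9158 of all 18116 genes passed. Wnk1 gave 11.52, 11.72 and 11.87 log2 units on replicates 1, 2 and 3, and passed on 3 of 3 probe sets. Stk39 and Oxsr1, the kinases that WNKs activate and that phosphorylate NKCC1, were at 6.16 ± 0.28 and 6.74 ± 0.39, Stk39 on 1 of 3 probe sets. Stk39 took its value from a probe set with the suffix _s_at. Without _s_at and _x_at probe sets 8 genes of the list passed, beside 10254 of all 17826 genes. The scaffold genes of these kinases, Cab39 and Cab39l, were at 9.73 ± 0.31 and 7.77 ± 0.13. Cul3 and Klhl2, of the ubiquitin ligase that removes WNKs, were at 9.64 ± 0.17 and 6.33 ± 0.50. Klhl2 passed on 1 of 2 probe sets and Cab39l on 2 of 4. Wnk2 passed at 7.43 ± 0.59, on 1 of 3 probe sets, and Wnk3 at 6.19 ± 0.27, and Wnk4, known for its role in kidney, was at 3.49 ± 0.77 and did not pass.

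Partners in acid and bicarbonate handling were above background in part. Of 13 carbonic anhydrase genes, which make bicarbonate from carbon dioxide, 3 passed, namely Car2 at 8.45 ± 0.17, Car3 at 5.56 ± 0.10 and the mitochondrial Car5b at 5.18 ± 0.23, Car3 on 1 of 4 probe sets and Car5b on 1 of 2. Those that did not included Car4, a surface enzyme, at 1.70 ± 1.47, and Car14 at 4.25 ± 0.53. Of 7 sodium-proton exchanger genes, 3 passed, namely the organelle forms Slc9a7 and Slc9a9 at 7.00 ± 0.24 and 6.08 ± 0.32 and Slc9a5 at 4.81 ± 0.31 (limma adjusted p = 0.0152). Slc9a9 passed on 1 of 4 probe sets and Slc9a5 on 1 of 2, and taking the median over each gene's probe sets 1 exchanger gene passed. Slc9a2, Slc9a3 and Slc9a4 were at 2.80 ± 0.61, 3.51 ± 0.30 and 2.04 ± 0.92, and Slc9a8 at 4.47 ± 0.38 (limma adjusted p = 0.0884).

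**Figure D4:**
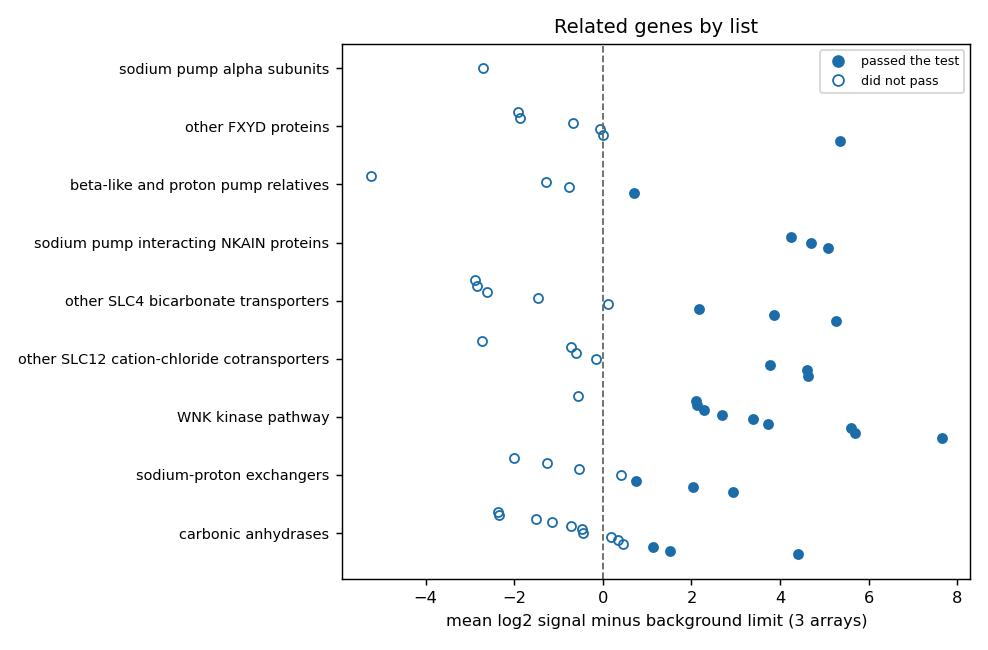
Mean log2 signal over the background limit (x axis) of 59 related genes, 1 point a gene, in rows by list. Filled points passed the test and open ones did not. The WNK pathway row (9 of 10) and the NKAIN row (3 of 3) lie mostly right of the dashed line at the limit, and the carbonic anhydrase row (3 of 13) mostly near or left of it.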

How the data were processed

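The authors deposited linear intensity values for 45101 probe sets on each array, made with GCOS 1.4 per the submitters' processing notes. The sources used here do not give its settings, scaling or detection calls. Log2 was taken with no pseudocount. The platform annotation named 34958 probe sets with 1 gene; 932 with several genes were left out and 9211 are unnamed here. Entrez identifiers, set against RefSeq's GRCm38.p6 gene table, changed 0 symbols. Coordinates are those of RefSeq's start windows, which matched 4 of 6 genes (6 windows). Genes and probe sets were tested in limma 3.58.1 (R 4.3.3), over 18116 genes and 34871 probe sets, receptor genes left out. At an unadjusted p below 0.05, 10713 genes were above the limit. On simulated data the procedure was checked only for calling genes placed above the limit. False calls and the choice of limit were not tested there. The number of arrays, 3, limits the precision. The pairs of arrays shared 0 identical values.

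All members were named with every probe set; of the related lists, all measured alpha, SLC4 and SLC12 genes and those above background were to be named, and of marker lists the first 3 measured. The other genes named beside them were chosen after their values were seen. Members and lists were chosen with earlier results of these data known. Likeness of pattern was not ranked, since 3 replicates of 1 group hold no pattern across conditions.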

Additional observations from a re-analysis of the deposited data

How the results depend on the processing

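All 6 genes stayed above background under 12 of 13 alternative settings: the median probe set value, no _s_at or _x_at probe sets, the limit at the 90th or 99th percentile, trimmed-mean scaling, quantile normalization, a pseudocount of 16, a filter on dim genes, an intensity trend, and each replicate left out. The exception took as limit the highest of 17 measured genes of other tissues, of which 4 were themselves above background and Krt10, a keratin gene named after its value was seen, set the limit at 8.21 log2 units. Then 5 members passed, Slc4a4 lay 0.63 units above the limit (limma adjusted p = 0.0653, against 3.62e-10 to 0.00116 under the other alternatives), and 2831 genes passed in all; the lists held 3 WNK pathway genes, 1 NKAIN gene and 0 SLC4, 0 SLC12, 0 sodium-proton exchanger, 0 carbonic anhydrase and 0 beta-like or proton pump genes. The last list also fell to 0 with the limit at the 99th percentile, and held 0 to 1 genes with 1 replicate left out (0 without replicate 1 and without replicate 2). Sodium-proton exchangers fell to 1 with the median of probe sets and held 2 to 3 with 1 replicate left out. With 1 replicate left out, 10237 to 10460 genes passed, and the members' levels over the limit ran from 8.08 to 8.16 for Atp1b1, 7.47 to 7.63 for Atp1b2, 6.09 to 6.11 for Atp1b3, 4.68 to 4.84 for Slc4a4, 5.40 to 5.595 for Slc12a2 and 5.32 to 5.47 for Fxyd1. Of the 12 settings under which all 6 genes passed, some were bound to keep or raise the members' levels. Trimmed-mean scaling changed no member's level, since the limit is set on each array. Leaving out _s_at and _x_at probe sets changed none either, since no member took its value from one. The 90th percentile only lowers the limit. The filter on dim genes took out low genes only, so it changed no member's level, and the members' adjusted p-values fell. These settings therefore say nothing on how firm the members' calls are. No paired analysis was possible because there is 1 group. Signals near the limit, such as those of 861 genes with a mean above it that did not pass, cannot be told from background with 3 arrays.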

Other observations

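Markers of other cell types are given here as levels (mean log2 signal ± SD, n = 3). Of the neuronal genes 5 passed: Map2 at 10.91 ± 0.16, Syt1 at 7.24 ± 0.12, Rbfox3 at 6.66 ± 0.30, Tubb3 at 5.83 ± 0.65 and Dcx at 5.09 ± 0.32. Map2 passed on 3 of 4 probe sets, Syt1 on 1 of 4, Rbfox3 on 2 of 3 and Dcx on 2 of 4. Snap25, of the synaptic release machinery, was at 2.02 ± 0.50, and it, Stmn2, Nefl, Slc17a6 and Gad1 were not above background. The oligodendrocyte lineage genes Olig1, Olig2 and Sox10 were at 11.64 ± 0.09, 8.29 ± 0.28 and 4.64 ± 0.15 and passed, as did Cnp at 11.72 ± 0.20 and Pdgfra at 5.81 ± 0.08. Sox10 and Pdgfra each passed on 1 of 3 probe sets. Mbp, Mog, Mag and Cspg4 of the same list did not pass. Of the ependymal genes Foxj1, Ccdc153 and Cfap126 passed at 9.76 ± 0.49, 6.21 ± 0.07 and 7.86 ± 0.25. Rsph1 at 3.92 ± 1.497, Dnah5 at 4.46 ± 0.26 and Tmem212 at 1.30 ± 0.46 did not. The first 3 genes of the endothelial, microglia and blood, mesenchymal and epithelial lists, namely Pecam1, Cdh5 and Cldn5, Aif1, Itgam and Cx3cr1, Col1a1, Col1a2 and Col3a1, and Cdh1, Epcam and Krt8, were not above background. Other genes of these lists passed: Kdr at 6.59 ± 0.46 and Egfl7 at 4.99 ± 0.37 (endothelial), Csf1r at 5.34 ± 0.18 (microglia and blood), Acta2 at 9.83 ± 0.21 and Tagln at 7.71 ± 0.14 (mesenchymal), and Trp63 at 5.03 ± 0.22 (epithelial). Csf1r and Acta2 each passed on 1 of 3 probe sets, Trp63 on 1 of 4 and Egfl7 on 2 of 4. Of the genes in this paragraph, those beyond the first 3 of a list were named after their values were seen.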
